A study of Mus musculus with 12 samples.

Results

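The extract response that was left in mouse lung without double-stranded RNA sensing was measured in 7 of the 12 RNA sequencing libraries of the study. These libraries were chosen by treatment and genotype and came from 2 sets. The RNase III set holds wild-type mice given PBS (PBS 1 and 2) or extract of Dermatophagoides farinae (D.f.), a house dust mite, together with RNase III (RNase III 5 and 6), which cleaves RNA duplexes. The knockout set holds mice without Tlr3 and Mavs that received PBS (knockout PBS 2) or D.f. extract without the enzyme (knockout 5 and 6). All animals had the B6 strain background and were 6 to 8 weeks old, and RNA was taken from whole lung 14 to 16 h after treatment. Each of the 4 extract libraries was compared with the PBS libraries of its own set, 2 with RNase III and 1 for the knockout. The other 5 libraries came from wild-type lung with PBS (n = 1, knockout set) or with D.f. extract alone (n = 2 in each set). They are used below where the response without sensing was set beside the full one. They also entered the scaling of the counts and the description of the sets, and give levels for reference. No group analysed here received PBS with RNase III. The labels do not say that replicates were separate animals, so the p-values speak only of the spread among these libraries, which may be technical.

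Tlr3 detects double-stranded RNA in endosomes. Mavs is the mitochondrial adaptor through which the cytosolic sensors Ddx58 and Ifih1 signal. Both routes lead to type I interferon, which induces antiviral genes in neighbouring cells. Mite extracts also carry proteases, lipid-binding allergens, lipopolysaccharide and sugars, which can act through Tlr4, C-type lectin receptors and epithelial cells without any RNA. Acute phase proteins and neutrophil chemokines are typical products of those other routes in lung.

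The targeted genes were read first. Mavs was at 3.12 CPM (counts scaled to a common library size) in knockout PBS 2 and at 2.69 and 2.38 CPM in knockout 5 and 6, against 32.2 and 40.5 CPM in PBS 1 and 2. Tlr3 was at 10.6, 14.97 and 10.2 CPM in the same knockout libraries, against 48.3 and 32.5 CPM in PBS 1 and 2. The 3 knockout libraries therefore lay below every wild-type library for both genes, as their labels state, while RNase III 5 and 6 carried both genes (Tlr3 44.3 and 43.2 CPM, Mavs 33.7 and 33.1 CPM).

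Reads assigned to the genes shared by all tables numbered 15522486 to 20428844 in the 7 libraries, so the floor behind a 0 (3 counts, counting error only) lies at 0.147 to 0.193 CPM. The lung label was borne out by surfactant gene Sftpc at 2651 to 7862 CPM over the 12 libraries. The sets differed in more than treatment and genotype. Xist, which is transcribed from the inactive X chromosome, was at 1496 to 2328 CPM in the RNase III set against at most 0.819 CPM in the knockout set. The Y-linked Ddx3y had 0 counts in the first set and 109 to 123 CPM in the second. The club cell gene Scgb1a1 was at 12687 to 25962 CPM in the first set and 1062 to 1767 CPM in the second. The wild-type libraries of the knockout set shared these levels with the knockout libraries, so the differences followed the set and not the genotype. Set and sex-linked expression cannot be told apart, and results below rest on comparisons within a set. PBS 2 carried heart muscle genes at a summed 3282 CPM against 379 CPM in PBS 1. No replicate pair was a duplicate (chi-square per degree of freedom over genes 50.7 for PBS, 8.32 for RNase III and 35.6 for knockout extract).

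Over both sets together, with the set as a term, 1 of 14738 genes tested was called at an adjusted p under 0.05 (0.00679%; quasi-likelihood test of edgeR, adjusted by Benjamini-Hochberg), and 742 genes (5.03%) had an unadjusted p under 0.05. The called gene was Cxcl3 (chromosome 5, 91215129 to 91217112, plus strand, NCBIM37), a chemokine that attracts neutrophils through Cxcr2. Cxcl3 was at 1.01 and 0.774 CPM in PBS 1 and 2 and at 6.57 and 7.54 CPM in RNase III 5 and 6. In the knockout set it was at 0.318 CPM with PBS and at 2.85 and 3.54 CPM with extract. Every extract library thus lay above every PBS library of its own set, and Cxcl3 rose 8.37-fold (log2 fold change 3.06 ± 0.25 SE, edgeR adjusted p = 0.0322). The call did not hold when PBS 1, PBS 2, RNase III 5, RNase III 6, knockout PBS 2 or knockout 5 was left out (edgeR adjusted p = 0.144, 0.107, 0.291, 0.506, 0.401 and 0.0700), although the log2 fold change stayed between 2.96 and 3.22. DESeq2 on the same counts called 37 genes (0.251%), 32 higher and 5 lower with extract. Of these, 31 of the higher and all 5 of the lower ones had every extract library beyond every PBS library of its own set. Since so few genes passed the first test, gene groups are described below by how many members had extract and PBS libraries that did not overlap in either set. Among all genes tested, 6.95% were higher and 6.10% were lower by that measure, and the median log2 fold change was -0.000494.

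Acute phase and secreted defence proteins made up the group with the highest share on the higher side. Of 23 members tested, 15 (65.2%) were higher without overlap in both sets and 0 were lower, with a median log2 fold change of 1.25, and 9 were called by DESeq2 against 0 by edgeR. In the RNase III set Lcn2, which encodes a protein that withholds iron from bacteria (chromosome 2), was at 122 and 171 CPM with PBS and at 791 and 878 CPM with extract. In the knockout set it was at 80.9 CPM with PBS and at 346 and 1296 CPM with extract. The groups of Lcn2 did not overlap, and its log2 fold change was 2.83 ± 0.46 (edgeR adjusted p = 0.897, DESeq2 adjusted p = 9.6e-05). Saa3, a serum amyloid A protein made by macrophages and epithelium (chromosome 7, 53967368 to 53971046, minus strand, NCBIM37), was at 14.7 and 7.93 CPM with PBS and at 280 and 343 CPM with extract in the RNase III set. In knockout lung it was at 9.87 CPM with PBS and at 17.2 and 370 CPM with extract. Saa3 was thus far above PBS in 3 extract libraries and close to it in knockout 5, with a log2 fold change of 4.60 ± 0.95 (edgeR adjusted p = 0.897). Chi3l1, a chitinase-like protein of epithelium and macrophages, was at 336 and 736 CPM with PBS and at 1594 and 1789 CPM with extract in the RNase III set, and at 445, 955 and 1415 CPM in knockout PBS 2, knockout 5 and knockout 6. Its log2 fold change was 1.56 ± 0.27. Serpina3n, an inhibitor of serine proteases, had a log2 fold change of 0.95 ± 0.17 and Slpi, an inhibitor of neutrophil elastase, one of 1.06 ± 0.19. Itih4, which encodes an acute phase plasma protein, had one of 1.22 ± 0.28. Saa1 and Saa2 were higher without overlap in both sets as well, but they are near-identical copies whose reads the counting may have split. Orm1, an acute phase carrier protein, was at 0.476 and 0.629 CPM with PBS and at 4.79 and 5.29 CPM with extract in the RNase III set, while in knockout lung PBS (6.43 CPM) and knockout 5 (6.25 CPM) overlapped.

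**Figure D1:**
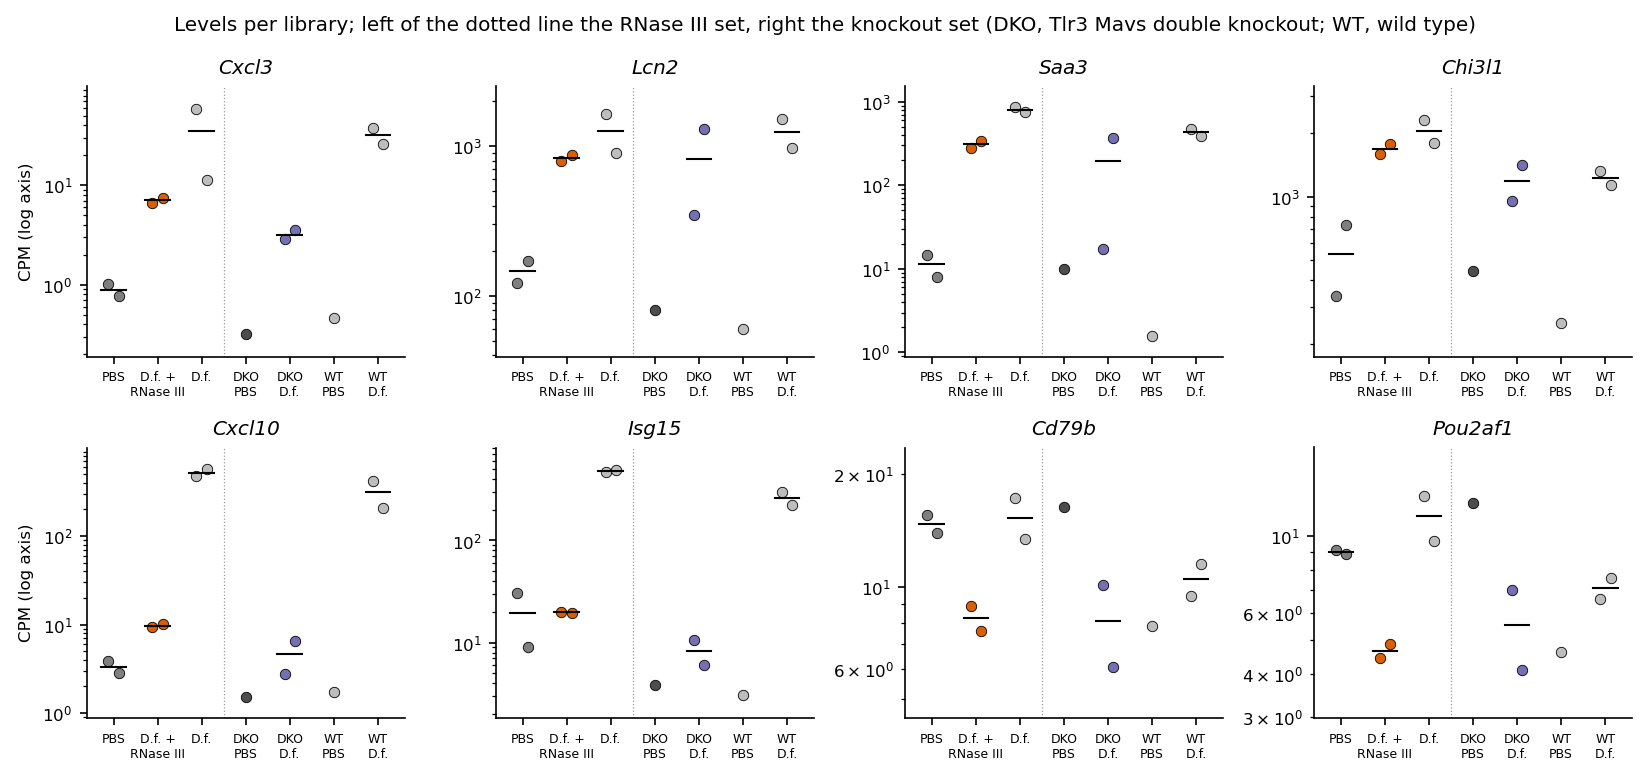
CPM (log axis) of 8 genes in each of the 12 libraries, 1 point per library, with a bar at the mean of groups with 2 libraries. Grey points at D.f. and at the WT groups belong to wild-type lung outside the 7 libraries. Cxcl3, Lcn2, Saa3 and Chi3l1 lay above the own PBS libraries in all 4 coloured extract libraries, Cxcl10 and Isg15 stayed below every library of wild-type lung with D.f. alone, and Cd79b and Pou2af1 lay below the own PBS libraries.

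Neutrophil chemokines and acute cytokines came next, with 8 of 20 members tested (40%) higher without overlap, 0 lower and a median log2 fold change of 1.01. Beside Cxcl3, these were the chemokines Cxcl1, Cxcl2, Cxcl5, Ccl3 and Ccl20 and the cytokines Csf2 and Il11. Cxcl1 was at 2.80 and 2.13 CPM with PBS and at 4.73 and 11.4 CPM with extract in the RNase III set, and at 1.02, 2.10 and 4.30 CPM in knockout PBS 2, knockout 5 and knockout 6. Its log2 fold change was 1.70 ± 0.40 (edgeR adjusted p = 0.908, DESeq2 adjusted p = 0.0255). Cxcl2, with a log2 fold change of 2.29 ± 0.68, and Cxcl5, with 1.74 ± 0.55, had the same order of libraries, PBS lowest and replicate 6 highest in each set. Csf2, a growth factor for macrophages and granulocytes, had a log2 fold change of 1.19 ± 0.27, and Ccl20, which attracts dendritic cells and lymphocytes through Ccr6, one of 0.99 ± 0.33. For Ccl20, wild-type PBS of the knockout set was at 2.22 CPM, above knockout 5 and 6 (1.88 and 2.18 CPM). The direction of Ccl20 in knockout lung thus rests on knockout PBS 2. For Cxcl5 that wild-type library was at 5.73 CPM, above knockout 5 (4.90 CPM). For Cxcl1, Cxcl2, Cxcl3 and Csf2 it lay below both knockout extract libraries. Il1b and Il6 overlapped between PBS and extract in knockout and in wild-type lung, respectively. Csf3, the growth factor of neutrophils, had at most 2 reads in any of the 7 libraries and was not tested. Markers of neutrophils themselves were near the background, with 2 of 19 (10.5%) higher without overlap. Their summed level was 109 and 255 CPM with PBS and 156 and 191 CPM with extract in the RNase III set, and 188 CPM with PBS and 160 and 396 CPM with extract in knockout lung. Among the neutrophil markers, the receptor gene Cxcr2 was at 10.5 CPM in knockout PBS 2, 7.86 CPM in knockout 5 and 50.4 CPM in knockout 6. Whether more cells of a type or more RNA per cell gave a level cannot be told apart in whole lung.

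The acute phase and chemokine lists differed in how often certain short sequences occurred in their promoters. The promoters of the 3 genes that lead these groups are therefore shown. Each is the RefSeq window (GRCm38.p6) from 250 bases before to 50 bases after the gene's start, 5′ to 3′ along the gene, with motif matches in capitals. The motifs searched on both strands were an NF-kB-like one (GGGANNTTC), a C/EBP-like one (TTGCNNAA) and an ISRE-like one (GAAANNGAA), the last named for the interferon-stimulated response element. In the windows below, the capitals mark an NF-kB-like match on each strand in Cxcl3 (chr5:90785851-90786150, plus strand), a C/EBP-like match in Lcn2 (chr2:32387690-32387989, minus strand), and an ISRE-like and then a C/EBP-like match in Saa3 (chr7:46715627-46715926, minus strand).
Cxcl3: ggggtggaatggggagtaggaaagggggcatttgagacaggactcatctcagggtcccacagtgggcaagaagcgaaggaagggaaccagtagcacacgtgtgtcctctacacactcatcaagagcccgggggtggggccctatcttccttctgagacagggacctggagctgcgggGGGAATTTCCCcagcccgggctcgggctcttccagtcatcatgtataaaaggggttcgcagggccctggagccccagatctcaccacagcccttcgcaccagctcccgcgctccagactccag
Lcn2: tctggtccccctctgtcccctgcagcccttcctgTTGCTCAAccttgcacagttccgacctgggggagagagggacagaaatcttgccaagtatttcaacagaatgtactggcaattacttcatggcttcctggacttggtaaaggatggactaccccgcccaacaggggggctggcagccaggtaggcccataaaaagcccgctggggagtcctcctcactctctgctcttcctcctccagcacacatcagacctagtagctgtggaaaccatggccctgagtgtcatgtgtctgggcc
Saa3: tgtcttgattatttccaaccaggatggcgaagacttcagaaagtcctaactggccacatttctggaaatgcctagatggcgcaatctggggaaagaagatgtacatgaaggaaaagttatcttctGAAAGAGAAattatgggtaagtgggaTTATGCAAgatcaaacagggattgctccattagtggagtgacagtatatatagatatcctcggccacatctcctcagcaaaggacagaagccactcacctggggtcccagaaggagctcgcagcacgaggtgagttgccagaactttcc
Of all 32851 promoter windows of this length, 10.8% held a C/EBP-like, 3.94% an NF-kB-like and 8.56% an ISRE-like match. Among 18 of the 23 acute phase genes with a window (19 windows), 12 genes held the C/EBP-like letters, 1 the NF-kB-like and 1 the ISRE-like letters. Counted by windows, as for the background, these shares were 63.2%, 5.26% and 5.26%. Among 14 of the 20 chemokine and cytokine genes (15 windows), 6 held the NF-kB-like, 2 the C/EBP-like and 2 the ISRE-like letters. By windows, the shares were 40.0%, 13.3% and 13.3%. These are matches of letters only.

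The lists of NF-kB, STAT3 and interleukin 6, lipopolysaccharide and lectin sensing, and inflammasome genes had lower medians than the acute phase and chemokine lists. Single members such as Tnfaip3 and Il1r2 had higher values. Which route the levels came from was not tested. Cebpb, a transcription factor of acute phase genes, was at 18.4 and 26.02 CPM with PBS and at 41.0 and 41.9 CPM with extract in the RNase III set. In knockout PBS 2, knockout 5 and knockout 6 it was at 101, 122 and 141 CPM. The log2 fold change of Cebpb was 0.68 ± 0.16 (edgeR adjusted p = 0.908, DESeq2 adjusted p = 0.0460). The STAT3 and interleukin 6 family list, which holds Cebpb, had 4 of 19 members (21.1%) higher without overlap and a median log2 fold change of 0.12. Its other 3 such members, Cebpd, the kinase gene Jak2 and the oncostatin M receptor gene Osmr, had log2 fold changes of 0.39 ± 0.09, 0.33 ± 0.10 and 0.30 ± 0.12. For Cebpd, wild-type PBS of the knockout set was at 106 CPM, above knockout 5 and 6 (98.4 and 102 CPM). The direction of Cebpd in knockout lung thus rests on knockout PBS 2. For Osmr that wild-type library was at 144.7 CPM, above knockout 5 (142.6 CPM). For Jak2 and Cebpb it lay below both knockout extract libraries. NF-kB subunits and feedback regulators had 4 of 20 (20%) higher without overlap and a median of 0.19. Nfkbia, the inhibitor that NF-kB itself induces, had a log2 fold change of 0.22 ± 0.08, and Birc3, an inhibitor of apoptosis, one of 0.40 ± 0.11. Tnfaip3, which encodes an enzyme that restrains NF-kB, was at 35.5 and 42.7 CPM with PBS and at 157 and 382 CPM with extract in the RNase III set, and at 38.0, 41.7 and 48.2 CPM in knockout PBS 2, knockout 5 and knockout 6. It was higher without overlap in both sets, far above PBS with RNase III and slightly above it in knockout lung (log2 fold change 1.71 ± 0.56). In wild-type lung with D.f. alone, Tnfaip3 was at 127 and 480 CPM in the RNase III set (replicates 3 and 4). It was at 94.6 and 83.3 CPM in the knockout set, so the wide spread between replicates was seen in the RNase III set. Tnip3, which encodes a partner of the Tnfaip3 protein, had a log2 fold change of 1.07 ± 0.45 and overlapped in knockout lung. Of 26 genes for sensing lipopolysaccharide and lectin ligands, 8 (30.8%) were higher without overlap and 1 was lower. They include Clec4e, the receptor Mincle, which was at 2.498 and 2.56 CPM with PBS and at 4.02 and 4.89 CPM with extract in the RNase III set. In knockout lung Clec4e was at 3.37 CPM with PBS and at 6.25 and 10.5 CPM with extract (log2 fold change 1.02 ± 0.25). Cd14, a co-receptor for lipopolysaccharide, had a log2 fold change of 0.99 ± 0.29. Of 21 inflammasome and interleukin 1 genes, 4 (19.05%) were higher without overlap and 0 were lower. They include Il1r2, the decoy receptor for interleukin 1, which is on the neutrophil marker list too. Il1r2 was at 0.357 and 0.532 CPM with PBS and at 2.25 and 2.93 CPM with extract in the RNase III set. In knockout PBS 2, knockout 5 and knockout 6 it was at 0.382, 1.62 and 12.95 CPM. Its log2 fold change was 3.14 ± 0.82 (edgeR adjusted p = 0.946, DESeq2 adjusted p = 0.0036).

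**Figure D2:**
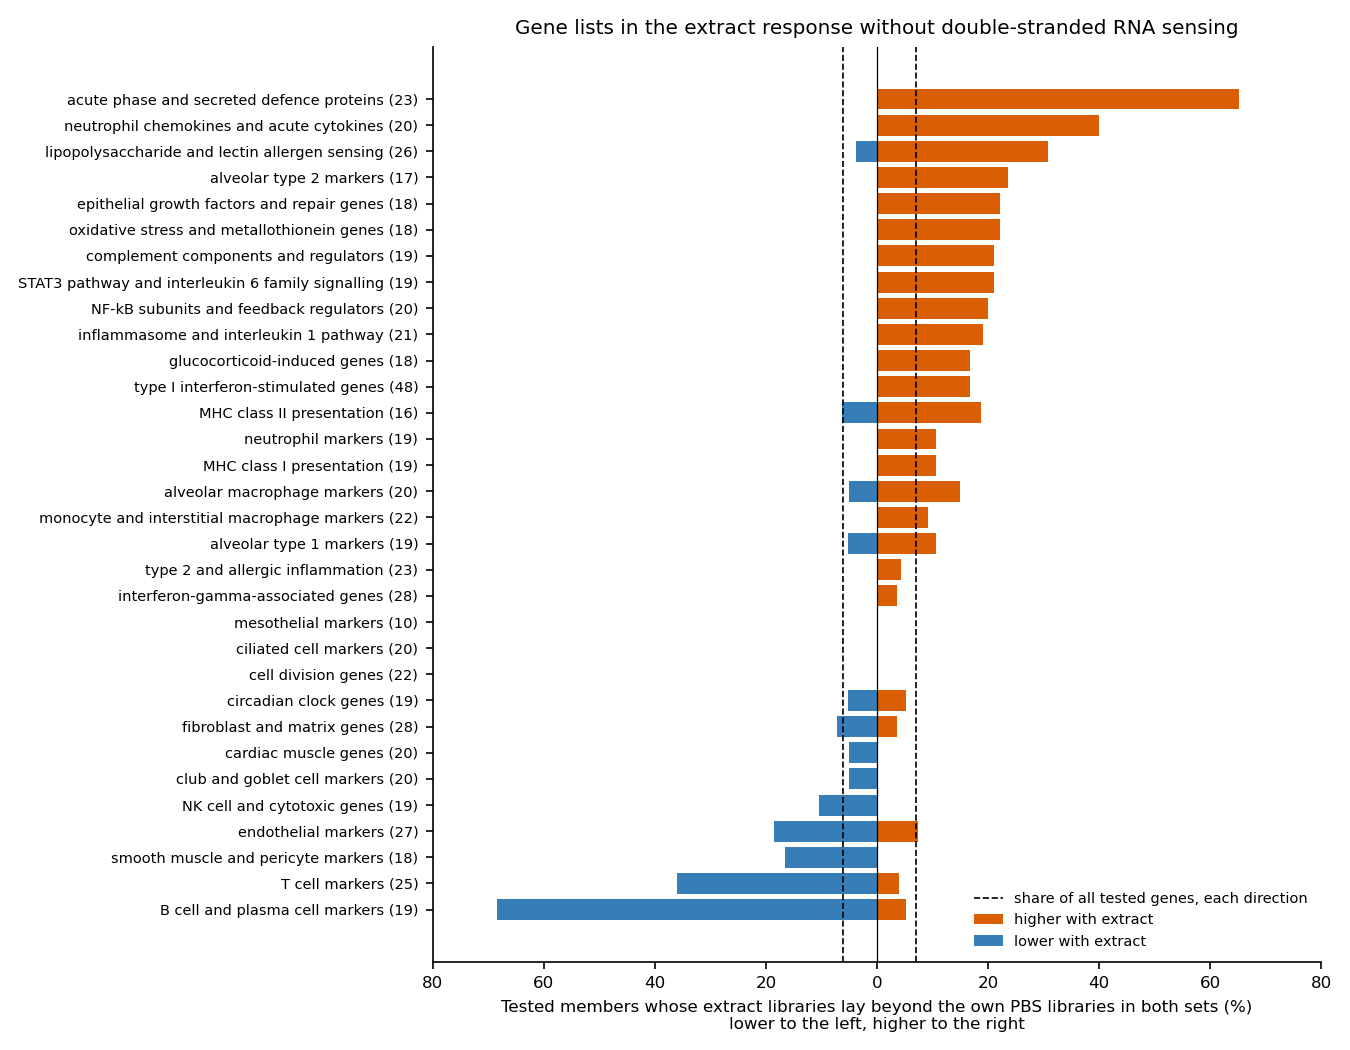
Percentage of the tested members of each gene list (number tested in brackets) whose extract libraries all lay above (right, orange) or below (left, blue) the PBS libraries of their own set in both sets. The dashed lines mark the same share over all genes tested, 6.95% and 6.10%. Acute phase proteins reached 65.2% on the right and B cell markers 68.4% on the left.

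Interferon-stimulated genes had small positive fold changes. Of 48 tested, 8 (16.7%) were higher without overlap and 0 were lower, none was called by edgeR or DESeq2, and the median log2 fold change was 0.26 (0.17 with RNase III and 0.50 in knockout lung), with 45 of 48 values positive. In knockout 5, 17 of the 48 were at least 2-fold above PBS. Isg15, which encodes a ubiquitin-like modifier with antiviral action (chromosome 4, 155573533 to 155574927, minus strand, NCBIM37), was at 30.3 and 9.04 CPM with PBS and at 19.9 and 19.7 CPM with extract in the RNase III set. In knockout lung it was at 3.88 CPM with PBS and at 10.6 and 6.07 CPM with extract. Its groups overlapped in the first set and not in the second. Ifit2, which binds viral RNA, was at 58.3 and 30.8 CPM with PBS against 47.8 and 43.8 CPM with extract in the RNase III set, and at 42.0 CPM against 45.4 and 40.8 CPM in knockout lung. Of these 8, the 4 with the smallest p were Lgals3bp, a secreted glycoprotein (log2 fold change 0.45 ± 0.10), Ifitm3, which blocks viral entry (0.40 ± 0.12), Oas3, a synthetase that activates RNase L (1.06 ± 0.32), and Slfn8 of the Schlafen family (0.60 ± 0.19). Ifnb1 had at most 1 read in any of the 7 libraries and up to 10 reads in wild-type lung with D.f. alone. Of 28 interferon-gamma-associated genes 1, the adhesion molecule gene Vcam1, was higher without overlap (3.57%).

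Cxcl10, a chemokine that binds Cxcr3 on T cells and NK cells (at chromosome 5, 92775664 to 92777915, minus strand, NCBIM37), was 1 of 8 interferon-induced chemokines tested (12.5%) that were higher without overlap, and the list had a median log2 fold change of 1.04 with 7 of 8 values positive. In the RNase III set Cxcl10 was at 3.87 and 2.81 CPM with PBS and at 9.29 and 10.2 CPM with extract. In knockout lung it was at 1.53 CPM with PBS and at 2.80 and 6.53 CPM with extract. The groups did not overlap, and the log2 fold change was 1.57 ± 0.31 (edgeR adjusted p = 0.897, DESeq2 adjusted p = 0.0036). Cxcl9, another Cxcr3 ligand, had a log2 fold change of 1.39 ± 0.60, with no overlap in the RNase III set (1.13 and 0.387 CPM with PBS, 3.31 and 3.16 CPM with extract) and overlap in knockout lung. Ccl8, a monocyte chemokine, had one of 1.13 ± 0.62. Ccl5, a chemokine of T and NK cells, was the member with a negative value, -0.58 ± 0.21. The windows of Cxcl10 (chr5:92348840-92349139, minus strand) and Isg15 (chr4:156200769-156201068, minus strand) are shown in the same way as those above. Whether these genes differ in what was left of their response was not tested. The capitals mark, in Cxcl10, an ISRE-like match at bases 38 to 46 and an NF-kB-like match at bases 92 to 100, and in Isg15 a run of 3 overlapping ISRE-like matches from base 173 to base 193, counted from the window's 5′ end.
Cxcl10: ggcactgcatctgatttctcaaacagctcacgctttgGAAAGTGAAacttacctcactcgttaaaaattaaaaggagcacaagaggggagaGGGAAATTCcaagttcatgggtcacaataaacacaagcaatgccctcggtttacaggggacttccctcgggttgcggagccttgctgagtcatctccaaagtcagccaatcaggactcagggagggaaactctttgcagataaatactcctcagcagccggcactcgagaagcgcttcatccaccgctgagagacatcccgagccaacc
Isg15: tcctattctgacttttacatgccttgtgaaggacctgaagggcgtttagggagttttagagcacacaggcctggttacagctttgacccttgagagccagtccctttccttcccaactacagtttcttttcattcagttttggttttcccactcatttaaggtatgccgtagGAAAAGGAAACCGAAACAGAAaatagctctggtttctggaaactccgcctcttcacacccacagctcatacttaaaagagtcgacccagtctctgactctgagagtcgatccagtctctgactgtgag
Among 35 of the 48 interferon-stimulated genes with a window (42 windows), 20 held the ISRE-like, 4 the NF-kB-like and 1 the C/EBP-like letters. By windows, the shares were 52.4%, 9.52% and 4.76%.

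The response without sensing was then compared with that of wild-type lung to D.f. alone, over all 12 libraries and averaged over the sets. In the RNase III set both responses use PBS 1 and 2. The response without sensing was lower for 555 of 14895 genes tested (3.73%) and higher for 107 (0.718%) at an edgeR adjusted p under 0.05. The number of calls was 662 in all, and 384, 406 or 392 without RNase III 5, RNase III 6 or wild-type D.f. replicate 3 of the knockout set. Of 48 interferon-stimulated genes 46 were lower, with a median log2 fold change of 0.30 without sensing beside 3.26 in the full response. Ifit2 was lower by a log2 difference of -4.77 ± 0.32 (edgeR adjusted p = 0.000335), Bst2, which tethers budding virus, by -3.01 ± 0.19 and Isg15 by -4.95 ± 0.56. Cxcl10, for all that was left of it, was lower by -5.81 ± 0.62 (edgeR adjusted p = 0.00148), wild-type lung with D.f. alone being at 470 and 571 CPM beside RNase III and at 423 and 210 CPM beside the knockout. Of 19 genes of MHC class I presentation 16 were lower, with a median of 0.17 beside 1.68. Among acute phase genes fewer members passed the test, which does not show that the others kept the full response. There 2 of 23 were lower, Saa1 (log2 difference -2.59 ± 0.38, edgeR adjusted p = 0.0058) and Serpina3n (-0.94 ± 0.21, edgeR adjusted p = 0.0350), and the medians were 1.38 without sensing and 1.85 in the full response. For Saa3 the difference was -2.58 ± 1.11 (edgeR adjusted p = 0.283), from 7.13 in the full response to 4.54 without sensing. For Lcn2 it was -0.82 ± 0.53 (edgeR adjusted p = 0.512), and for Itih4 it was 0.52 ± 0.32 (edgeR adjusted p = 0.492). These 3 did not pass the test. Among chemokines and cytokines 1 of 20, Tnf, was lower, with a log2 difference of -2.69 and an edgeR adjusted p of 0.00928, while the medians were 1.08 and 2.73. The difference of Cxcl3 was -2.54 ± 1.31 (edgeR adjusted p = 0.386), its levels in wild-type lung with D.f. alone being 59.1 and 11.2 CPM and 38.0 and 25.96 CPM. Clec4e was lower by -2.05 ± 0.30 (edgeR adjusted p = 0.0058) and Il1rn, the interleukin 1 receptor antagonist, by -2.502 ± 0.46 (edgeR adjusted p = 0.0151). Among the 10 genes with the smallest p on the other side, Igfbp3, which binds insulin-like growth factors, was higher by 2.05 and Cd209a, a lectin of dendritic cells, by 3.06.

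**Figure D3:**
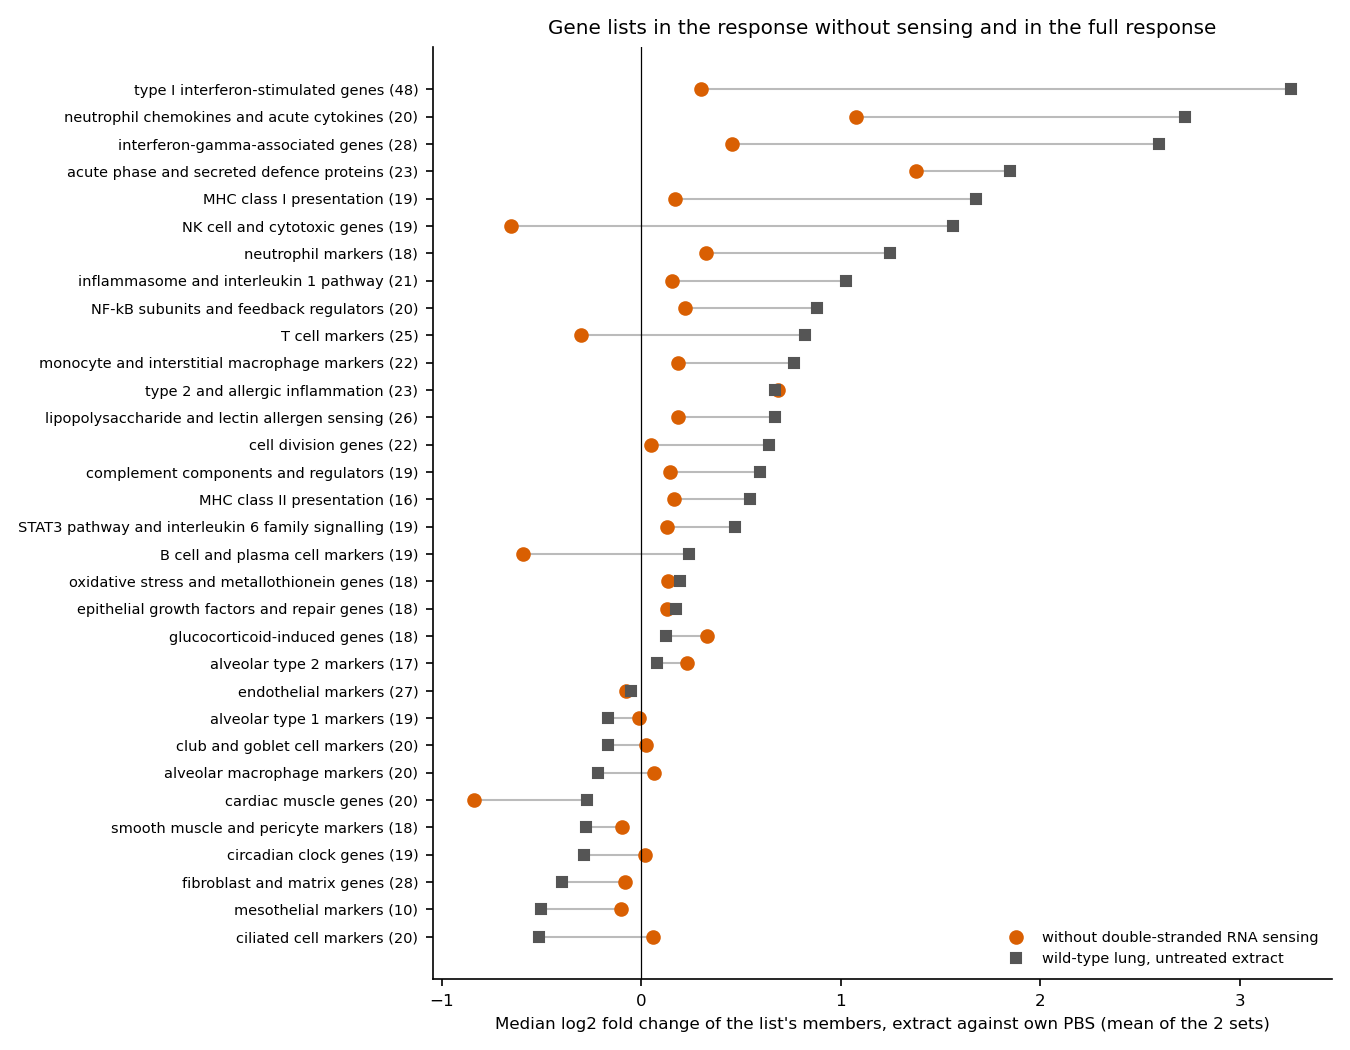
Median log2 fold change of the members of each gene list (number in brackets) against the own PBS libraries, averaged over the 2 sets, without double-stranded RNA sensing (circles) and in wild-type lung with D.f. alone (squares). The interferon-stimulated genes had medians of 3.26 with D.f. alone and 0.30 without sensing, the acute phase proteins 1.85 and 1.38. Both responses share PBS 1 and 2.

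Genes of type 2 and allergic inflammation seldom separated extract from PBS in both sets. Of 23 tested, 1 (4.35%), the arginine-degrading enzyme gene Arg1, was higher without overlap and 0 were lower, with a median log2 fold change of 0.52 and 18 of 23 values positive. The median was 0.17 with RNase III and 1.20 in knockout lung, where 14 of 23 members were at least 2-fold above PBS in knockout 6 and 6 in knockout 5. Il33, an epithelial alarm cytokine, was at 56.3 and 122 CPM with PBS and at 116 and 129 CPM with extract in the RNase III set, and at 48.6, 98.2 and 86.2 CPM in knockout PBS 2, knockout 5 and knockout 6. Its groups overlapped in the first set (log2 fold change 0.63 ± 0.25). The eosinophil chemokine genes Ccl11 (0.52 ± 0.81) and Ccl24 (0.29 ± 0.66) and the mucin gene Muc5ac (0.99 ± 0.63) overlapped as well. Il13, the cytokine that drives mucus production, had at most 4 reads in any of the 7 libraries and was not tested. Eosinophil and mast cell markers had 0 of 6 members higher and 1 lower.

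B cell markers were the list with most members on the lower side. Of 19 tested, 13 (68.4%) were lower without overlap in both sets and 1, the low-affinity IgE receptor gene Fcer2a, was higher, with a median log2 fold change of -0.59. In the RNase III set Cd79b, a signalling chain of the B cell receptor (chromosome 11), was at 15.5 and 13.9 CPM with PBS and at 8.88 and 7.59 CPM with extract. In knockout lung it was at 16.3 CPM with PBS and at 10.1 and 6.07 CPM with extract. The groups did not overlap, and the log2 fold change was -0.91 ± 0.19 (edgeR adjusted p = 0.897, DESeq2 adjusted p = 0.0194). Pou2af1, a coactivator of B cell transcription, had a log2 fold change of -1.04 ± 0.20 (edgeR adjusted p = 0.897, DESeq2 adjusted p = 0.0130). Cr2, a complement receptor of B cells, had one of -1.25 ± 0.34 and Cd79a, the partner of Cd79b, one of -0.85 ± 0.29. Summed over the list, B cell marker levels were 262 and 207 CPM with PBS and 177 and 183 CPM with extract in the RNase III set, and 188 CPM with PBS and 134 and 95.004 CPM with extract in knockout lung. Wild-type PBS of the knockout set was at 123 CPM, below knockout 5, so the direction in knockout lung rests on knockout PBS 2. Against the full response Pou2af1 (log2 difference -1.54 ± 0.27) and Cd79b (-1.16 ± 0.25) were among 4 of 19 members that were lower (edgeR adjusted p = 0.0116 and 0.0314), and D.f. alone left the list at a median of 0.24. In the knockout set, the difference from the full response rests on 1 PBS library per genotype. Pou2af1 was at 4.62 CPM in wild-type PBS and 12.5 CPM in knockout PBS 2, and Cd79b at 7.84 and 16.3 CPM. With extract, wild-type and knockout libraries of that set overlapped for both genes. In the RNase III set, both genes were higher with D.f. alone than in RNase III 5 and 6. T cell markers had 9 of 25 members (36.0%) lower and 1 higher without overlap, with a median of -0.28. Summed over the T cell list, knockout PBS 2 was at 178 CPM, knockout 5 and 6 were at 134 and 145 CPM, and wild-type PBS of that set was at 136 CPM, so here too the direction in knockout lung rests on knockout PBS 2. The lower ones include Cd8b1, a chain of the Cd8 co-receptor (-1.08 ± 0.34), Tcf7, a transcription factor of naive T cells (-0.36 ± 0.10), and Cd3d of the T cell receptor complex (-0.71 ± 0.29). NK cell and cytotoxic genes had 2 of 19 (10.5%) lower without overlap and 18 of 19 with a negative log2 fold change, with a median of -0.55 (-0.14 with RNase III and -1.06 in knockout lung). Summed over this list, knockout PBS 2 was at 121 CPM and knockout 5 and 6 at 72.4 and 58.7 CPM, while wild-type PBS of that set was at 40.3 CPM, below both.

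**Figure D4:**
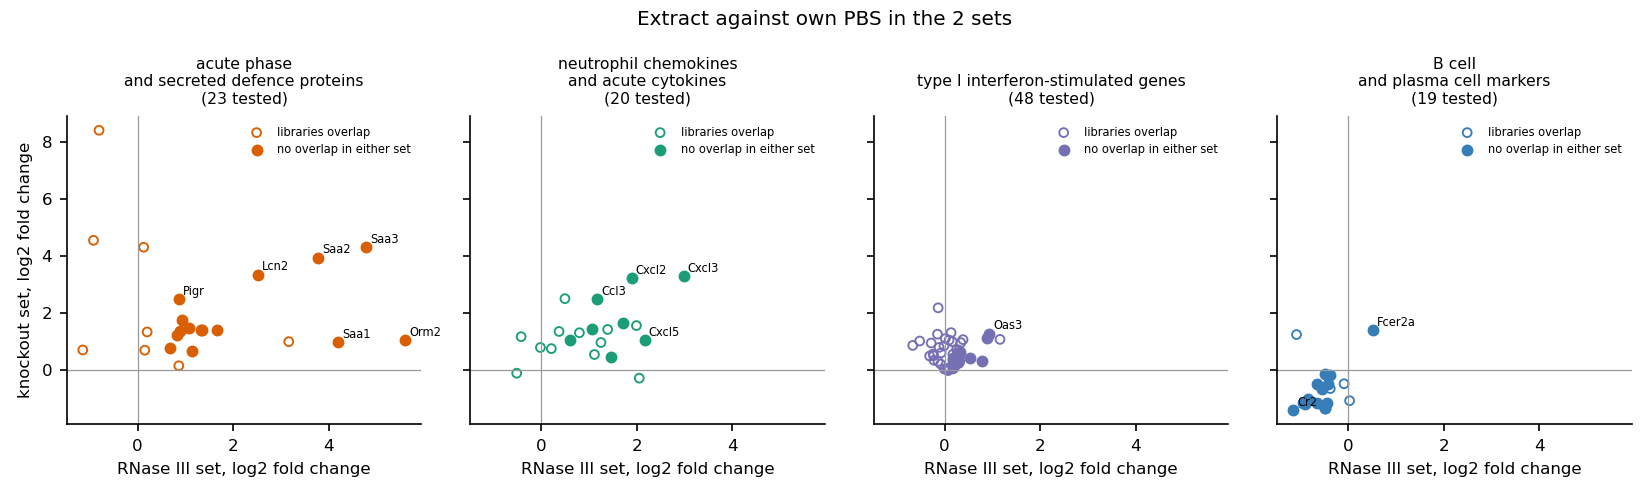
Log2 fold change of extract against own PBS, RNase III set on the horizontal and knockout set on the vertical axis, 1 point per tested member of 4 gene lists. Filled points had no overlap between extract and PBS libraries in either set. Filled acute phase and chemokine members lay in the upper right, B cell members other than Fcer2a in the lower left, and interferon-stimulated genes near 0 on the horizontal axis.

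Among cells of the lung wall, alveolar type 2 markers had 4 of 17 members (23.5%) higher without overlap and 0 lower, 3 of them called by DESeq2. Sftpd, a collectin of surfactant, was at 618 and 907 CPM with PBS and at 1254 and 1163 CPM with extract in the RNase III set, and at 321, 544 and 700 CPM in knockout PBS 2, knockout 5 and knockout 6 (log2 fold change 0.78 ± 0.17). Lamp3, a membrane protein of lamellar bodies, had a log2 fold change of 0.58 ± 0.14, and Chi3l1, given above, is on this list too. The median of the list was 0.22. Endothelial markers had 5 of 27 (18.5%) lower and 2 higher, the lower ones including Gja5, a gap junction protein of arteries (-0.65 ± 0.17), and Vwf, the platelet-binding von Willebrand factor (-0.37 ± 0.12). Summed over the endothelial list, knockout PBS 2 was at 11174 CPM and knockout 5 and 6 at 10160 and 10408 CPM. Wild-type PBS of that set was at 8943.5 CPM, below both, so the direction of the sum in knockout lung rests on knockout PBS 2. In the RNase III set the sums overlapped, at 8043 and 9248 CPM with PBS and 8267 and 8655 CPM with extract. Club and ciliated cell markers had 0 of 20 members each higher without overlap, and their sets went opposite ways. The club list had a median log2 fold change of -0.68 with RNase III and 0.72 in knockout lung. For the ciliated list the medians were -0.24 and 0.41. The circadian clock list and the cell division list stayed at the background, with 1 of 19 and 0 of 22 higher.

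The knockout extract libraries stood apart from each other. In knockout 6, 20 of 23 acute phase genes were at least 2-fold above knockout PBS 2, against 11 in knockout 5. For interferon-gamma-associated genes the order was turned, with 19 of 28 at least 2-fold above PBS in knockout 5 and 0 in knockout 6, and 26 of 28 higher in knockout 5 than in knockout 6. The GTPase genes Igtp and Gbp7, singled out after their values were seen, were at 265 and 572 CPM in knockout 5, at 23.2 and 62.4 CPM in knockout 6 and at 53.0 and 134 CPM in knockout PBS 2. Of 48 interferon-stimulated genes, 43 were higher in knockout 5 than in knockout 6, and 17 were at least 2-fold above PBS in knockout 5 against 4 in knockout 6. RNase III 5 and 6 were closer to each other, with 10 and 14 acute phase genes and 3 and 0 interferon-gamma-associated genes at least 2-fold above the mean of PBS 1 and 2. The part of depth or of cell types in this difference was not tested. Without knockout 6, 4 genes were called over both sets, among them Cxcl3, Lcn2 (log2 fold change 2.37, edgeR adjusted p = 0.0281) and Ccl9, a chemokine of myeloid cells (1.32, edgeR adjusted p = 0.0367).

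**Figure D5:**
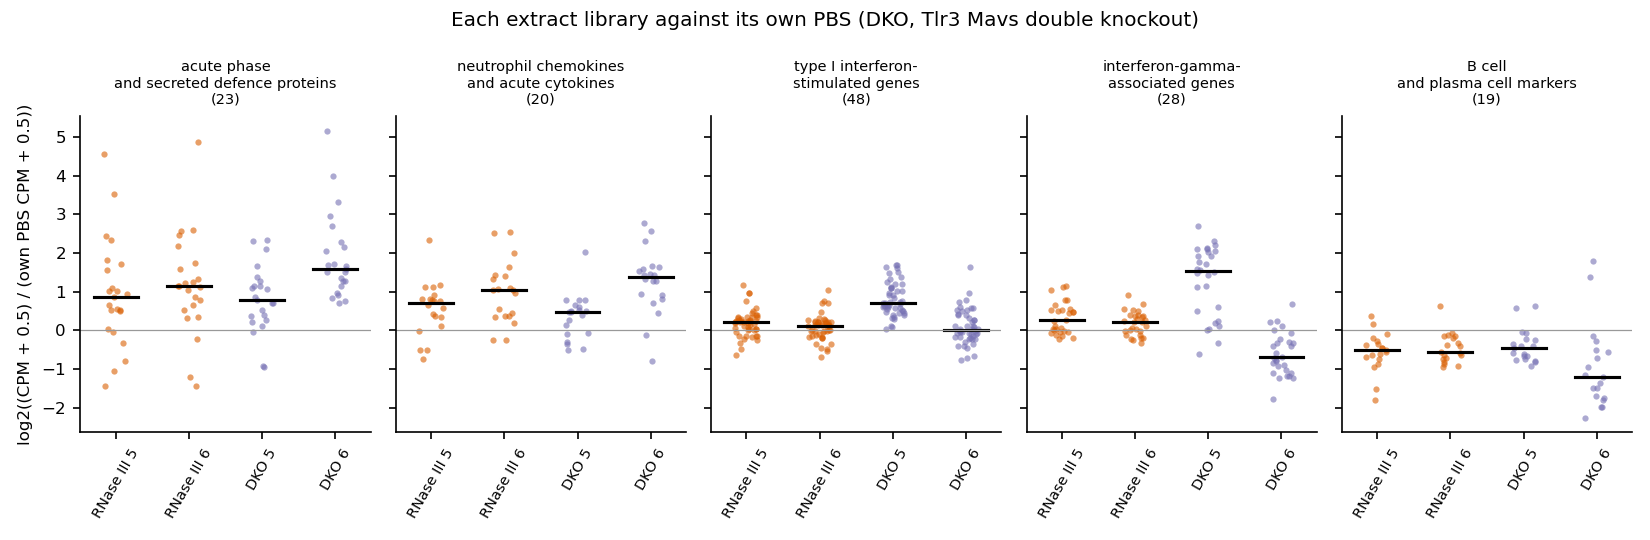
Log2 ratio of each extract library to its own PBS level (CPM + 0.5 in both) for the tested members of 5 gene lists, 1 point per gene, with a bar at the median. Interferon-gamma-associated genes had a median of 1.53 in knockout 5 and -0.69 in knockout 6, while acute phase genes had medians of 0.77 to 1.60 in all 4 libraries.

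Whether the enzyme and the knockout left different responses was asked last. No gene was called for the difference between the sets by edgeR (347 genes, 2.35%, at an unadjusted p under 0.05), while DESeq2 called 11. Neither set had a call of its own by edgeR, with 526 genes (3.57%) for RNase III and 486 (3.3%) for the knockout at an unadjusted p under 0.05, and DESeq2 called 23 and 15. For the 13195 genes whose mean log2 CPM was 1 or more, the log2 fold changes of the sets, which share no library, had a Pearson r of 0.130 and a Spearman rho of 0.0861, given as a description. The genes of each set share their PBS libraries. For Saa1 the log2 fold change was 4.19 ± 0.48 with RNase III and 0.98 ± 0.51 in knockout lung. For Tnfaip3 the values were 2.79 ± 0.40 and 0.24 ± 0.47. Neither gene passed the test of the difference.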

How the data were processed

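RNA from whole mouse lung was sequenced in 12 libraries, 7 of which form the response without double-stranded RNA sensing. TopHat2 2.0.8b, HTSeq, bcl2fastq and the build mm9 were used, per the submitters' processing notes, which give no order or settings. The HTSeq version, its annotation and its strand setting were not given in the sources used here. The authors deposited whole-number counts per gene symbol, which were used as deposited. The rows for unassigned reads were dropped, and 23.1 to 28.2% of all listed reads were assigned to genes. The tables list 33924 (RNase III) and 22609 (knockout) genes, so the 21627 shared symbols were used, and 21430 of them were matched to GENCODE M1 (NCBIM37) for coordinates.

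TMM factors came from all 12 libraries. Genes were kept by filterByExpr and tested with the quasi-likelihood test of edgeR 4.0.16 (R 4.3.3) with Benjamini-Hochberg adjustment at 0.05. The response over both sets had 1 extract effect with the set as a term (4 residual degrees of freedom). The sets' own responses and their difference came from the 7 libraries with a mean per group (3 degrees of freedom), and the difference from the full response from 12 libraries (5 degrees of freedom). The scripts were tested on simulated data. Alternatives were DESeq2 1.42.0, other size factors, no low-count filter, no set term, equal weights for the sets, a 1.5-fold threshold test and each library left out in turn.

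A gene's groups were said not to overlap where, in each set, all extract libraries lay on 1 side of all PBS libraries. Genes named are those called in the response over both sets, the 4 members of each described list with the smallest p, a set of genes always given, and up to 10 genes with the smallest p in each direction of the difference from the full response. Other genes were chosen after their values were seen, among them Ccl3, Il11, Slpi, Itih4, Fcer2a, Tnf, Cxcr2, Ccl9, Igtp, Gbp7 and those of the closing observations. The members and lists were chosen with earlier results of these data known. Saa1 and Saa2, Orm1 and Orm2, and the Ly6, Schlafen and MHC families hold near-identical copies, so their counts are uncertain, and without a stated strand setting reads of overlapping genes cannot be told apart.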

Additional observations from a re-analysis of the deposited data

How the results depend on the processing

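Over both sets, 1 gene was called. DESeq2 called 37, and the fits with no set term, with equally weighted sets or against a 1.5-fold change called 0. Leaving out 1 library gave 0 to 4 calls, and the single fit over 12 libraries called 1 gene, which was not Cxcl3 (edgeR adjusted p of Cxcl3 = 0.600). In the RNase III set, where 0 genes were called, DESeq2 called 23, leaving out 1 library gave 0 to 11 calls, with 11 without PBS 1 and 2 without RNase III 5. DESeq2 called 15 genes in the knockout set and 11 for the difference between the sets, where edgeR called 0. Against the full response, 662 genes were called, and leaving out 1 library gave 384 to 948. The log2 fold change of Cxcl3 was 2.85 to 3.22 under 15 alternatives, with the call kept under 5.

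Of 1215 values of 81 named genes under these alternatives, 1170 kept direction and side of the threshold, 10 lost the call, 27 gained it, 23 of them by DESeq2, and 8 reversed. With no set term, the log2 fold change was -0.034 for Isg15, -0.049 for Ccl24 and -0.12 for Tlr3. Leaving out 1 library gave -0.54 to 1.08 for Ccl11, -0.20 to 0.58 for Ccl24 and -0.16 to 0.30 for Ifit2. The cause was not tested.

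In counts added after seeing the data, leaving out 1 library gave 15 to 20 acute phase genes higher, 8 to 12 chemokine and cytokine genes higher and 13 to 17 B cell genes lower without overlap. Leaving out a library can only keep or raise such counts. The lower ends are those with all libraries, so they were fixed in advance and do not test how stable the counts are. Knockout PBS 2 was not among the libraries left out here. Over all genes these shares were at most 17.3% and 16.5%, both without PBS 2. PBS and extract libraries share no replicate number over both sets, so no paired analysis was possible there. For the difference between the sets, the fit with the replicate number as a block called 0 genes, and the deviations of replicate 5 had a correlation of 0.111. Leaving out knockout PBS 2 leaves no knockout control, so the knockout response, the set difference and the difference from the full response could not be fitted. Leaving out wild-type PBS of the knockout set had the same effect on the difference from the full response. With 1 knockout PBS library, its spread is assumed to equal that of the other groups.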

Other observations

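Other genes called by DESeq2 but not by edgeR in the response over both sets, include Slfn4, Irg1 and Cxcl13, chosen after their values were seen. Slfn4, a Schlafen gene of myeloid cells, was at 3.87 and 8.56 CPM with PBS and at 21.96 and 28.1 CPM with extract in the RNase III set, and at 8.02, 23.4 and 45.4 CPM in knockout PBS 2, knockout 5 and knockout 6. Its log2 fold change was 2.04 ± 0.32 (DESeq2 adjusted p = 8.17e-08), and it was lower than in the full response by -4.64 ± 0.46 (edgeR adjusted p = 0.00112). Irg1, the enzyme that makes itaconate in macrophages, was at 0.238 and 0.580 CPM with PBS and at 3.02 and 3.91 CPM with extract in the RNase III set, and at 0.828, 2.42 and 11.4 CPM in the knockout libraries. Cxcl13, which attracts B cells through Cxcr5, was at 1.49 and 2.08 CPM with PBS and at 4.14 and 6.56 CPM with extract in the RNase III set, and at 0.955, 4.41 and 6.32 CPM in the knockout libraries. In both of these genes every extract library lay above every PBS library of its set.

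Some genes stood out in single libraries. Pgk1, a glycolytic enzyme gene, was at 2.80 and 1.84 CPM in PBS 1 and 2, at 15.2 and 29.7 CPM in RNase III 5 and 6, and at 2.10, 2.26 and 3.34 CPM in knockout PBS 2, knockout 5 and knockout 6. The non-coding gene Gt(ROSA)26Sor was at 12.5 and 10.9 CPM with PBS, at 74.7 and 182 CPM in RNase III 5 and 6, and at 15.3, 15.4 and 19.2 CPM in the knockout libraries. In wild-type lung with D.f. alone (replicates 3 and 4 of the RNase III set) Pgk1 was at 2.20 and 23.2 CPM and Gt(ROSA)26Sor at 14.5 and 144 CPM. Both genes were thus high in 3 of the 4 extract libraries of that set. Tnfaip3, given above, was likewise lowest in replicate 3 and next lowest in RNase III 5 among these, at 127 and 157 CPM. It reached 382 CPM in RNase III 6 and 480 CPM in replicate 4, with PBS at 35.5 and 42.7 CPM. The cause was not tested. Sox11, a developmental transcription factor gene, was at 17.6 CPM in knockout PBS 2 and at 63.4 and 61.0 CPM in knockout 5 and 6, while wild-type PBS of the same set was at 60.1 CPM.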
